A study of Mus musculus with 6 samples.

Results

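The genes described here handle iron in the retinal pigment epithelium (RPE) and choroid of the mouse. They were taken by symbol, as the rows of the gene table named Hmox1, Ftl1, Fth1, Slc40a1, Tfrc, Trf, Cp, Hamp, Slc11a1 and Slc11a2. All 10 had a row among the 33924 genes of the table. Poly(A)-selected RNA came from RPE/choroid scraped from the sclera of C57BL/6J mice, labelled male, after the neural retina had been lifted off, with 3 young and 3 aged samples, each made from 2 eyes. The labels put the young mice at 1 to 2 months, and the aged mice at 20 to 24 months in the sample titles and at 22 to 24 months in the time field. The study's methods differ from the labels on the sex of the mice and on the age of the young group. The labels name no transgene, deletion or agent for either group. The tissue is a mixture of cells, so that a level in it cannot tell fewer cells of a type from less RNA per cell.

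The measurement used for each gene was the authors' mean normalized count, the average over all 6 libraries after scaling each for sequencing depth. It is 1 value per gene and runs across young and aged mice together. It therefore has no standard deviation, no number of replicates behind a group, and no test, and any difference between young and aged mice is averaged out in it. No comparison of the age groups is given, and neighbours in the order of levels cannot be judged against the spread between mice. Values for single libraries were not analysed here. The depth of each library is therefore unknown, although the smallest values in the table showed that the largest scaling factor among the 6 libraries was only 1.11 times the smallest.

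Cells take up iron mainly as transferrin bound to the transferrin receptor, move it out of endosomes through a divalent metal transporter, store it in shells of ferritin light and heavy chains, and release it through ferroportin together with a copper oxidase that loads it back onto transferrin. Iron regulatory proteins tune this circuit after transcription: they bind iron-responsive elements, small stem-loops in the untranslated regions of several of these mRNAs, blocking translation from the 5′ end and protecting the mRNA from decay at the 3′ end. The RPE passes iron between the choroidal blood and the photoreceptors, and iron left free in it promotes oxidative damage.

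The stem-loops are shown first because they separate the genes of this circuit by sequence alone. The search took a bulged C, 5 bases, the loop CAGTGN and 5 bases that pair with the first 5 (Watson-Crick or G-T pairs). It read the sense strand of the GRCm38 transcripts of GENCODE, where T stands for the U of the RNA. Each line gives 30 bases of an mRNA, 5′ to 3′, with the 6 loop bases in capitals. The 5′ untranslated regions of both ferritin chains and of ferroportin each held 1 such stem-loop with 5 of 5 pairs:
Fth1, chr19:9982731-9982760, plus strand: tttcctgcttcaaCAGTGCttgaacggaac
Ftl1, chr7:45459779-45459808, minus strand: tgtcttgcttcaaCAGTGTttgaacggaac
Slc40a1, chr1:45925465-45925494, minus strand: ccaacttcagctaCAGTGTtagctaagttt

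The transferrin receptor mRNA held 4 stem-loops with 5 of 5 pairs, all in its 3′ untranslated region, shown to make the contrast with the single 5′ element of the genes above:
Tfrc, chr16:32631218-32631247, plus strand: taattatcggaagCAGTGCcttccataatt
Tfrc, chr16:32631597-32631626, plus strand: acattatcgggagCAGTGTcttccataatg
Tfrc, chr16:32631662-32631691, plus strand: tctatatcggagaCAGTGAtctccatatgt
Tfrc, chr16:32631709-32631738, plus strand: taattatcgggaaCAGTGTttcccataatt

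The divalent metal transporter Slc11a2 had a match with 4 of 5 pairs in its 3′ untranslated region, in 1 of its 6 coding transcripts:
Slc11a2, chr15:100395153-100395182, minus strand: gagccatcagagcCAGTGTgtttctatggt

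In the ferritin heavy chain the loop of the element began at base 99 of the 929-base mRNA, ahead of a coding sequence that starts at base 225, and the element was present in 4 of 5 coding transcripts. In the light chain the loop began at base 90 of 968, ahead of a coding start at base 254, and in ferroportin at base 102 of 3370, ahead of a coding start at base 320. The loops of the 4 Tfrc elements began at bases 3327, 3706, 3771 and 3818 of an mRNA of 4890 bases whose coding sequence ends at base 2429. The Ftl1, Slc40a1 and Tfrc elements were each in 1 annotated coding transcript of the gene, of 2, 4 and 3 respectively. Over the protein-coding transcripts of 21877 genes, 31 genes (0.142%) held a match with 5 of 5 pairs in a 5′ untranslated region, and 129 genes (0.590%) held one in a 3′ untranslated region. Among the 10 iron handling genes, 3 had the first and 1 had the second. Of the other iron and heme genes described below, 45 were searched. Only 1 of these, the heme synthesis gene Alas2, had the first, and 0 had the second. With 4 of 5 pairs allowed, the shares of all genes were 0.937% and 3.99%, and 5 of the 10 genes held a match in either region. Trf, Cp, Hamp, Hmox1 and Slc11a1 had no match in an untranslated region, which says only that these letters were not found there. The searched pattern is that of iron-responsive elements, which were already known in several of these mRNAs. Matches in these genes were therefore to be found, and the counts beside the shares of all genes are no test of enrichment. A match is a description of the sequence, and binding was not measured.

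**Figure D1:**
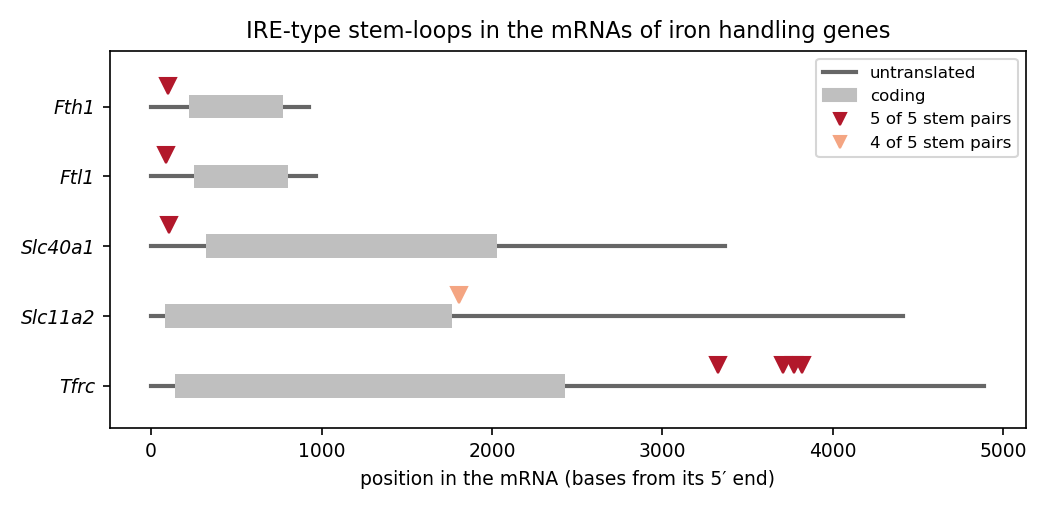
Map of the mRNAs of iron handling genes that hold a stem-loop in an untranslated region, with position in bases along the horizontal axis. The coding sequence is a thick bar and each match a triangle, dark for 5 of 5 pairs and pale for 4 of 5 (Slc11a2). The loops of Fth1, Ftl1 and Slc40a1 lie ahead of the coding sequence, from bases 99, 90 and 102, whereas the 4 of Tfrc lie after it, from base 3327 to 3818.

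Trf encodes transferrin, the carrier that binds iron outside cells. Its mean normalized count of 540972 was the highest of all 33924 genes and made up 1.33% of the summed counts. The next genes in that order were mt-Co3, a mitochondrial subunit of the respiratory chain, which Trf exceeded 1.23-fold, and Ttr, the thyroid hormone and retinol transport protein made by the RPE, which Trf exceeded 1.36-fold. Because long transcripts give more reads, levels of different genes are compared below per kilobase of the longest annotated transcript. On that scale Trf was at 210413 per kilobase, rank 4 after mt-Co3, Ttr and mt-Co1, and at 0.628 times the level of Ttr. The order of Trf and Ttr turned with the length used, the ratio being 0.287 with the coding length and 2.08 with the median transcript length. The gene spans chr9:103204001-103230444 on the minus strand of GRCm38. An annotated gene on the same strand, Gm20425, contains 79.8% of the 50-base words of the Trf mRNA and had no row under that name, so that reads of these exons could not be told apart by sequence.

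Tfrc encodes the transferrin receptor, which carries iron-loaded transferrin into cells. Its mean normalized count was 6462, or 1322 per kilobase, and 86.2% of the 17943 genes ranked per kilobase were at or below it. The gene lies at chr16:32608920-32632794 on the plus strand. The level of the ligand was 159 times that of the receptor per kilobase. This ratio was 87.3 with the median transcript length and 91.6 with the coding length, so the order held under each while the size did not. Tfr2, a second transferrin receptor known best from liver and red cell precursors, was at 82.2 by mean normalized count. Tfrc exceeded it 49.4-fold per kilobase, 82.3-fold with the coding length and 83.1-fold with the median transcript length. Ltf, lactoferrin, a transferrin relative of secretions and neutrophils, was at 102, and Trf exceeded it 5662-fold per kilobase, or 3691-fold with the median transcript length.

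The 2 members of the Slc11 family move divalent metals out of endosomes and phagosomes. Slc11a2, the transporter that releases iron from transferrin endosomes in most cells, was at 2222 by mean normalized count, at chr15:100387898-100425072 on the minus strand. Slc11a1, which is known for its place in the phagosomes of macrophages, was at 2178, at chr1:74375195-74386062 on the plus strand. Their order depended on the length used. Per kilobase of the longest transcript Slc11a2 was at 503 and Slc11a1 at 799, a ratio of 0.630. The ratio was 0.535 with the RefSeq mRNA, 0.984 with the coding length and 1.01 with the median transcript length, so no order of these transporters can be given. All 8 macrophage marker rows, which include the complement genes C1qa, C1qb and C1qc, were above 0, from 1014 for Aif1 to 13165 for C1qa by mean normalized count. Their part in the level of Slc11a1 was not tested.

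**Figure D2:**
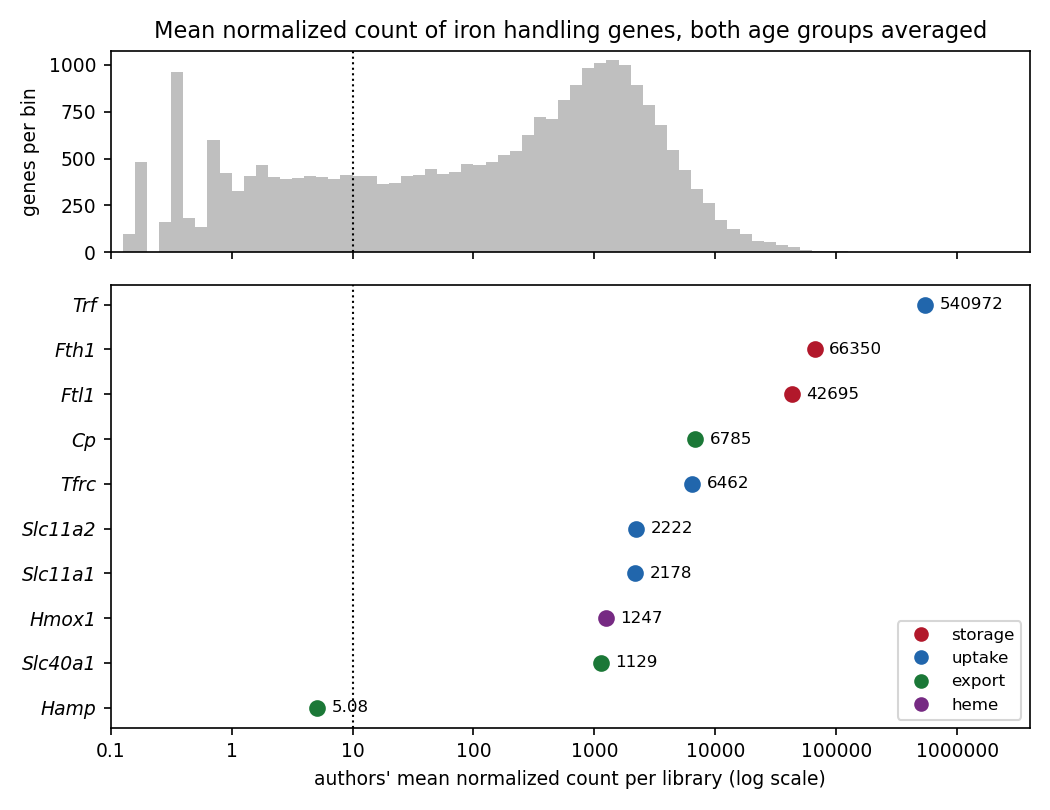
Mean normalized count over the 6 libraries on a log axis, with a histogram of all genes above 0 in the upper panel, and in the lower panel 1 point per iron handling gene, coloured by role and without error bars because the table gives 1 value per gene; the dotted line marks the minimum of 10. Trf at 540972 stands above Fth1 at 66350 and Ftl1 at 42695, 6 genes lie between 1129 and 6785, and Hamp is at 5.08.

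Both ferritin chains were among the highest rows of the table. Fth1 encodes the heavy chain, which oxidizes iron as it enters the shell, and had a mean normalized count of 66350, rank 33 of all genes. Ftl1 encodes the light chain, which helps iron to mineralize inside the shell, and had 42695, rank 65. Together they made up 0.267% of the summed counts. Fth1 lies at chr19:9980598-9985098 on the plus strand and Ftl1 at chr7:45457944-45459884 on the minus strand. Per kilobase of the longest transcript Ftl1 was at 44107 and Fth1 at 32177, a ratio of light to heavy chain of 1.37. The direction turned with every other length tried: the ratio was 0.599 with the median transcript length, 0.640 with the coding length and 0.618 with the length of the RefSeq mRNA. The longest Fth1 transcript has 2062 bases against 929 for its RefSeq mRNA. No order of the chains can therefore be given from these rows.

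The light chain row was further limited by near-identical copies. Only 21.1% of the 50-base words of the Ftl1 mRNA were its own, against 93.4% for Fth1. The row Gm10116, a copy annotated as Ftl1-ps1 at chr13:74399694-74407346 on the plus strand, shares 73.4% of the words of Ftl1. It had a mean normalized count of 51714, above Ftl1 itself. Ftl2, a processed pseudogene at chr4:125504288-125504839 on the plus strand, shares 29.7% and was at 25703. Gm15590, a processed pseudogene at chr17:6131854-6132405 on the minus strand, shares 34.6% and was at 14983. Summed, the light chain and its 3 copies reached 135095, of which the Ftl1 row held 31.6% and Gm10116 held 38.3%. The heavy chain and the pseudogene Fth-ps2 reached 66540, of which Fth-ps2 gave 190. Fth-ps2 was added by its name and shares none of the 50-base words of Fth1, whereas the copies of Ftl1 were added for sharing at least 10%. Gm6977, which shares 6.59% of the words of Fth1 and was at 107, was left out. With these rows added, and the sums divided by the lengths of Ftl1 and Fth1, the ratio was 4.32 with the longest transcript. It was 1.95 with the RefSeq mRNA. Reads shared by Ftl1 and its copies may have been split between rows or counted in several, and the copies may have reads of their own. The level of Ftl1 is therefore uncertain, and the ratio of the sums is not a corrected ratio of light to heavy chain. The mitochondrial ferritin gene Ftmt was listed at 0.

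**Figure D3:**
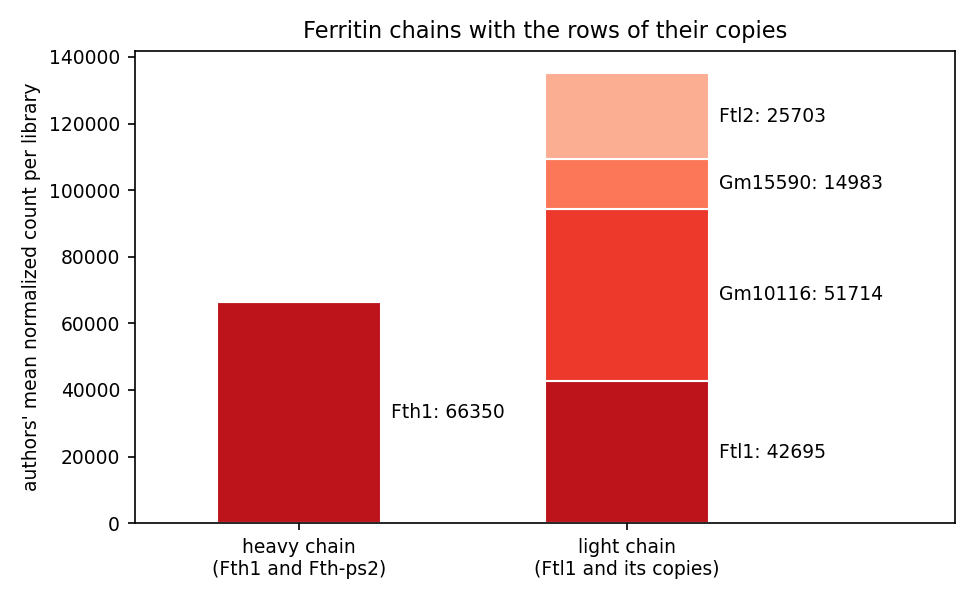
Mean normalized counts stacked from 0 for each ferritin chain, with a segment per row, the heavy chain at left and the light chain with its copies at right, not divided by length. Fth-ps2 was added by its name, and the copies of Ftl1 by shared sequence. The Gm10116 segment (51714) is larger than that of Ftl1 (42695), the light chain stack reaches 135095, and Fth-ps2 at 190 is too thin to be seen on top of Fth1 at 66350.

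Slc40a1 encodes ferroportin, the iron exporter of the cell membrane. It had a mean normalized count of 1129, the lowest of the 9 genes above the minimum of 10 that was set for ranking. Per kilobase it was at 287, with 56.7% of genes at or below it, although with the median transcript length Slc40a1 was at 2361 and Hmox1 lower, at 1064. The gene lies at chr1:45908068-45926523 on the minus strand. Cp encodes ceruloplasmin, a copper oxidase that oxidizes exported iron for loading onto transferrin, and was at 6785, or 1487 per kilobase. It lies at chr3:19957054-20009145 on the plus strand and overlaps Hps3, on the other strand, whose row was at 2865. Cp exceeded Slc40a1 5.17-fold and Tfrc exceeded it 4.60-fold per kilobase, and with the median transcript length these ratios were 2.35 and 3.39. Heph, hephaestin, the membrane-bound relative of ceruloplasmin, was at 4939, and Cp exceeded it 1.43-fold per kilobase. That ratio was 1.46 with the coding length and 4.38 with the median transcript length. Hephl1, the other relative of this family, was at 10.4.

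Hamp encodes hepcidin, the peptide hormone, made chiefly by liver, that binds ferroportin and removes it from the membrane. Its mean normalized count was 5.08, under the minimum of 10, and its summed value over the 6 libraries was 30.5. The gene, at chr7:30942368-30944032 on the minus strand, has a single transcript of 410 bases and shares 16.6% of its 50-base words with Hamp2, whose row was at 1.30. Markers of hepatocytes were similarly near the floor, with Alb, albumin, at 6.40 and the 3 markers between 4.72 and 11.4. At a mean of this size only a low level in the mixed tissue can be stated, and a higher level in a rare cell type was not detectable. Of the 5 genes known to set hepcidin expression, 3 were above 1000, a level that 41.1% of all ranked genes reached. Hfe, Hfe2 and Bmp6 were at 3462, 1778 and 1187. The liver protease gene Tmprss6 was at 12.6 and Fam132b, the erythroferrone gene, was at 22.5.

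Hmox1 encodes the inducible heme oxygenase, which opens the heme ring and frees its iron. Its mean normalized count was 1247, or 795 per kilobase, with 78.2% of genes at or below it. The gene lies at chr8:75093621-75100589 on the plus strand. Hmox2, the constitutive form, was at 1624, and the ratio of Hmox1 to Hmox2 was 0.847 per kilobase of the longest transcript, 0.837 with the coding length and 0.702 with the median transcript length. The order of the forms was thus the same with each length, though without an error it cannot be said whether the difference exceeds the spread between mice.

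**Figure D4:**
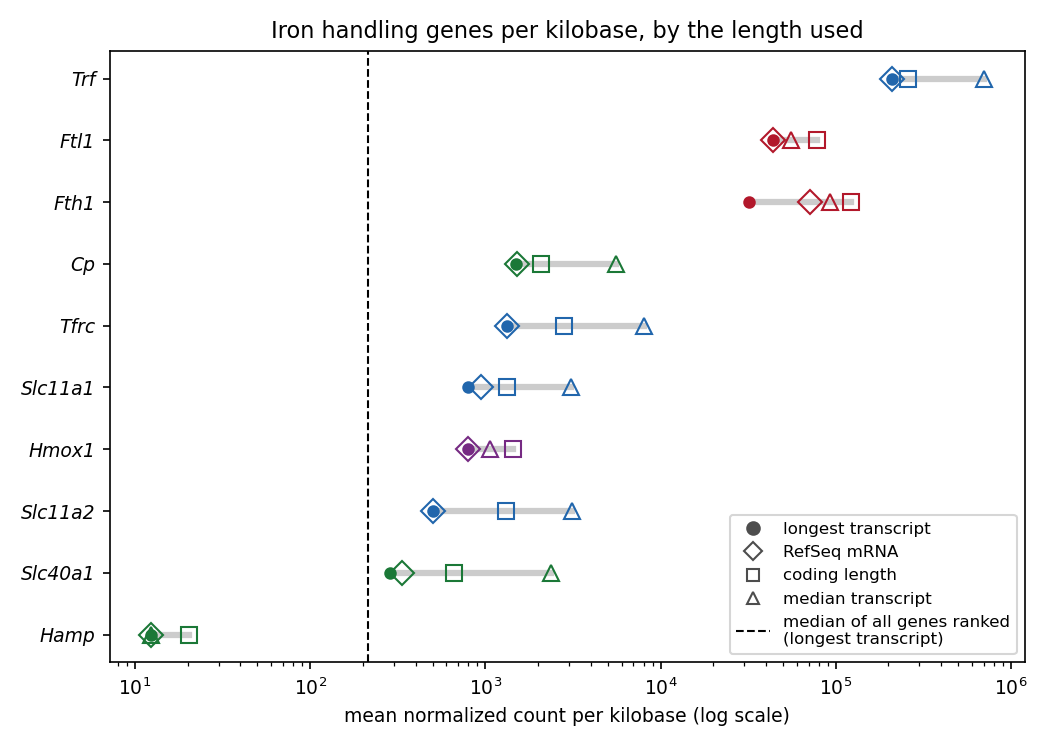
Mean normalized count per kilobase on a log axis for each iron handling gene, with 1 marker for each of 4 ways to measure transcript length and a dashed line at the median of all ranked genes, 214 per kilobase of the longest transcript. Trf, Ftl1 and Fth1 lie far to the right with every length, Hamp lies to the left of the line, and the markers of Slc40a1 span 287 to 2361.

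As a group, 9 of the 10 genes were above the median level, which was 668 over the 18479 genes that reached the minimum of 10. They were also the 9 at or above 1000, a level that 41.1% of all ranked genes reached. The highest 10% of levels began at 4586 and held 5 of them, namely Trf, Fth1, Ftl1, Cp and Tfrc. Per kilobase the highest 10% held 3, and Cp and Tfrc, whose longest transcripts have 4564 and 4890 bases, lay outside it. The 10 genes together made up 1.64% of the summed counts, and 0.316% without Trf.

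The same circuit was read through 46 other iron and heme genes. All had a row, 3 of them under an older symbol, 45 were at 10 or above and 28 (60.9%) at 1000 or above. Of all 33924 genes, 18479 were at 10 or above, and 41.1% of those ranked genes were at 1000 or above. The 60.9% includes Ftmt, which was not ranked, and the pseudogene Ftl2. The counts by role below are small and were not tested against the share of all ranked genes. Per kilobase, 31 of the 46 were above the median of all ranked genes. The 5 highest by mean normalized count were the pseudogene Ftl2 at 25703, the heme transporter Slc48a1 at 11781, Lrp1 at 9509, Flvcr2 at 9346 and Fbxl5 at 8975. Per kilobase of the longest transcript Slc48a1, Flvcr2 and Fbxl5 were at 4645, 2721 and 2118, and Lrp1, which has a transcript of 14888 bases, at 639. Lrp1 is a large endocytic receptor that takes up heme bound to hemopexin, and Fbxl5 is the iron sensor that marks iron regulatory protein for degradation. The 3 genes of the iron regulatory protein system were all above 1000. Ireb2 and Aco1, which encode the proteins that bind such stem-loops, were at 4197 and 5374, and the third was Fbxl5. Ncoa4, the receptor that delivers ferritin to lysosomes, was at 5315. Of the 5 genes of storage and release 4 were above 1000, among them the pseudogene Ftl2, whose reads may belong to Ftl1. Of the 11 genes of uptake and reduction 4 were above 1000, and mean normalized counts ran from 49.4 to 3558. Per kilobase the highest of them was the metalloreductase Steap4, at 814. Of the 6 genes of mitochondrial iron 3 were above 1000, with Iscu, the scaffold on which iron-sulfur clusters are built, at 5148. Of the 14 heme genes 10 were above 1000, the lowest, also per kilobase, being the plasma heme carrier Hpx at 39.4.

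**Figure D5:**
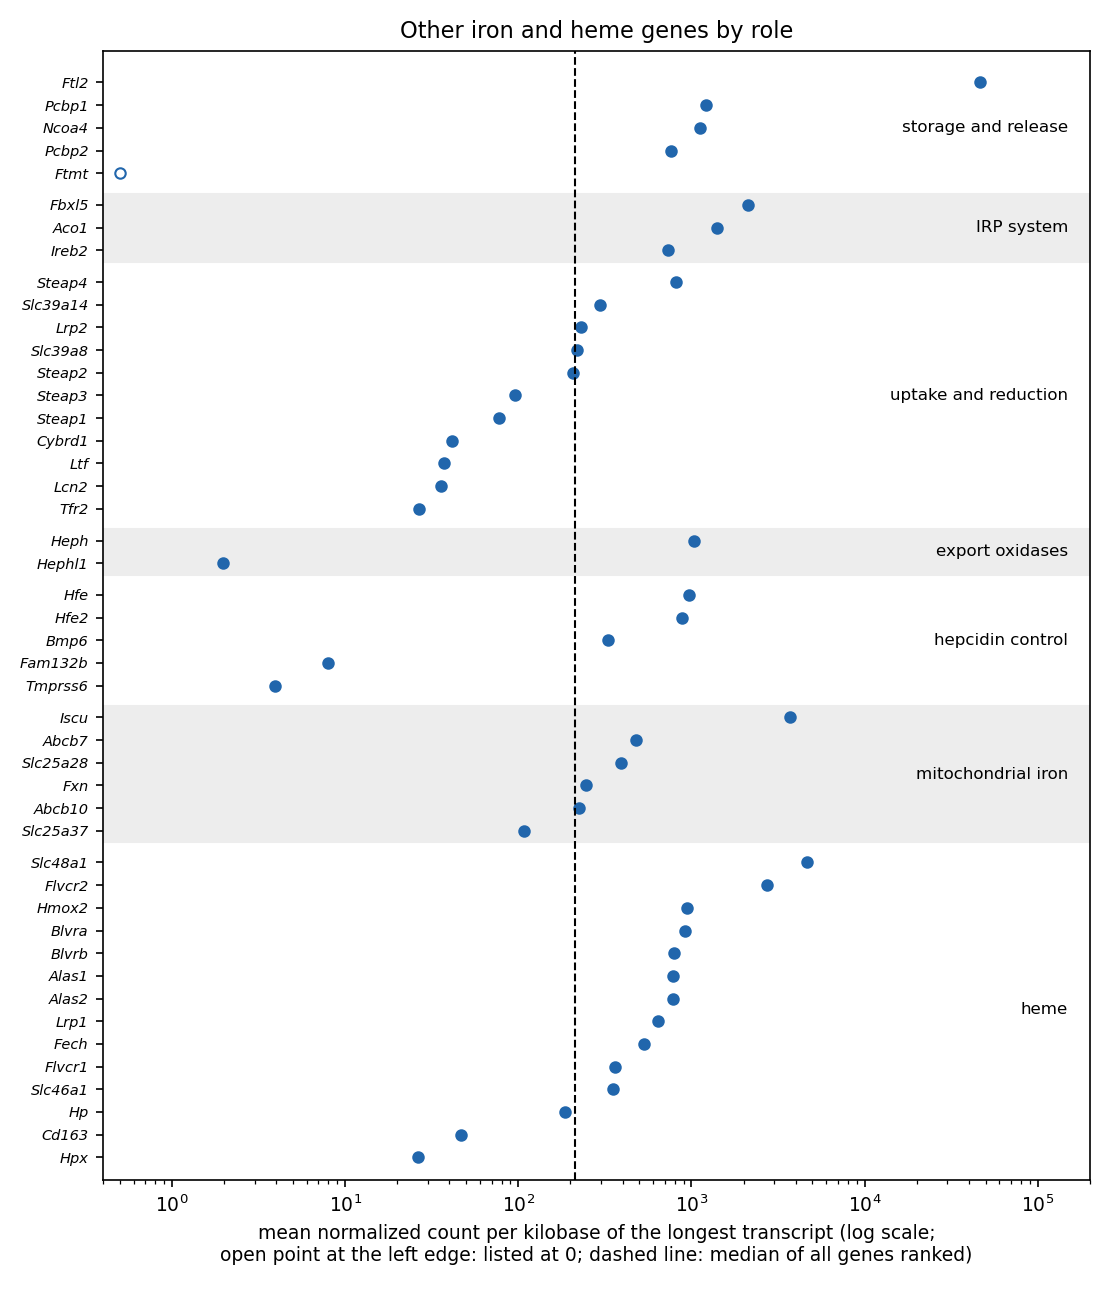
Mean normalized count per kilobase of the longest transcript on a log axis for 46 other iron and heme genes, 1 row per gene grouped by role, with the median of all ranked genes as a dashed line. In all, 31 genes lie to the right of the line, Ftl2 is farthest right, and Ftmt, listed at 0, is drawn as an open point at the left edge.

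The labelled tissue was checked against marker genes. All 10 RPE markers were above 0, from 81.8 for the channel gene Best1 to 397586 for Ttr by mean normalized count, with the visual cycle isomerase Rpe65 at 113930. The pigment genes listed as melanocyte markers, most of which the RPE also expresses, were between 25408 and 256984. Markers of other tissues were also present. All 5 skeletal muscle markers were between 35123 and 48944, the endothelial markers between 717 and 7369, and the Schwann cell markers between 560 and 5281. Of 7 red cell markers 5 had a row, led by the globin gene Hba-a1 at 37845, and the heme synthesis gene Alas2 of red cell precursors was at 1591. How much of each iron handling transcript came from these other cells was not tested, and cannot be read from a single mean per gene.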

How the data were processed

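RPE/choroid RNA from 3 young and 3 aged samples of mice was sequenced after ribosomal RNA removal and, per the study's methods and the labelled molecule, poly(A) selection, with a kit that marks strand; whether strand was used in counting is not given in the sources used here. Per the labels, the authors aligned reads to GRCm38 with STAR and analysed them with DESeq2. The study's methods add trimming with BBDuk, and quantification with Sailfish as TPM that were then turned into normalized counts by total count; how reads shared by near-identical genes were assigned is not given in the sources used here. The deposited table gives, for each of 33924 genes, a mean normalized count over both age groups (a signal, not divided by transcript length; shorter genes had lower values). Its other columns, which were not used, hold the authors' own comparison of aged with young mice (log2 fold change, standard error, Wald statistic, p-value and adjusted p-value). Sample groups came from the labels. No test was run, because the value used is pooled over all 6 libraries.

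Genes with a mean of at least 10 were ranked (18479, of which 97.1% had a length in GENCODE for GRCm38). Levels per kilobase used the longest transcript; alternatives were the median transcript, the coding length, and the longest transcript paired with a RefSeq mRNA. Copies were sought as shared words of 50 bases, and Fth-ps2 was added by its name. The stem-loop search found 200 of 200 elements planted in simulated sequences. These had the searched pattern with 5 of 5 Watson-Crick pairs, in a background of A and T alone. The check therefore shows only that the search runs as written, and not how specific it is in real transcripts. The text names all 10 iron handling genes and, of the 46 other iron and heme genes, the 5 highest, any listed at 0 and the closest counterparts Hmox2, Ftl2, Ftmt, Tfr2, Ltf, Heph and Hephl1; other genes named from that list, and the marker genes, serve as examples of their role or cell type and were chosen after their values were seen. The genes and lists were chosen with earlier results of these data known. Tools were Python 3.11.15, numpy 2.4.6, pandas 2.3.3 and matplotlib 3.10.9.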

Additional observations from a re-analysis of the deposited data

How the results depend on the processing

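The number of iron handling genes above the median level was 9 with a minimum mean of 10, with none and with 50, and also per kilobase of the longest transcript and of the RefSeq mRNA; it was not computed with the median transcript or the coding length. The number in the highest 10% of levels was 5 with a minimum mean of 10, with none and with 50, and 3 per kilobase of the longest transcript or of the RefSeq mRNA. The ratio of Ftl1 to Fth1 was 1.37 per kilobase of the longest transcript, 0.599 with the median transcript, 0.640 with the coding length, 0.643 with no length scaling and 0.618 with the RefSeq mRNA. With rows of copies added it was 4.32, or 1.95 with the RefSeq mRNA, which is not a corrected ratio because the assignment of shared reads is not known. The RefSeq mRNA length was chosen after seeing the data. Of the 10 levels per kilobase, 9 were higher with the median transcript, by up to 8.22-fold, 10 with the coding length, by up to 3.78-fold, and 4 with the RefSeq mRNA, by up to 2.22-fold. No paired analysis was possible because the value used is a mean over all libraries. Leaving out a replicate and other depth scalings could not be run for the same reason. The depth of single libraries is unknown, so no counting interval is given, and levels near Hamp at 5.08 are the least precise.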
